A study of Homo sapiens with 6 samples.

Results

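Axon guidance ligands and receptors are the proteins by which a growing neurite reads its surroundings. They were taken here as the protein-coding genes of the semaphorin classes 3 to 7, neuropilin, plexin, ephrin, Eph receptor, Slit, Robo, netrin, DCC and UNC5 families, chosen by gene name and type, and they number 71 of the 60612 genes in the deposited table. Expression was measured by RNA sequencing in SH-SY5Y, an established human neuroblastoma cell line with neuronal character, in 6 libraries. The control vector group held 3 libraries of cells infected with a vector titled stuffer, and the other group held 3 libraries of cells whose vector is labelled for CDKN2B-AS1 overexpression, a long noncoding RNA gene on chromosome 9. No label gives a time after infection, and none names separate cultures for the replicates, so each p-value here reflects a spread between libraries that may be technical. The column names carry the tag LVx1 for the controls and LVx2 for the other group, which no label explains, and handling that differed with these tags and the vector itself cannot be told apart.

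The families work as matched sets. Secreted class 3 semaphorins bind neuropilins, which signal through class A plexins, while membrane-bound semaphorins bind plexins directly. Ephrins of the A type are anchored to the membrane by a lipid and bind mainly EphA receptor tyrosine kinases, whereas ephrins of the B type span the membrane and bind mainly EphB receptors. Slits repel axons through Robo receptors, and netrins attract through DCC or repel through UNC5 receptors, which are also known as dependence receptors because they can promote cell death without ligand. In neural crest derivatives, from which neuroblastoma arises, these cues are known for steering migrating cells and sympathetic axons.

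Levels are given as FPKM, in which fragments are divided by gene length and by the library's assigned total, so they can be compared between genes. The libraries held 20466583 to 48996425 assigned fragments. CDKN2B-AS1 itself stood at 0.250 ± 0.0522 FPKM in the controls against 0.332 ± 0.0252 FPKM in the other group (SD, n = 3 each), a ratio of 1.33 (exact two-sided permutation test, p = 0.1, the smallest that 3 libraries against 3 allow), so directions below are those of the labels. Of 11 markers of adrenergic neuroblastoma 10 were tested and TH, the first enzyme of catecholamine synthesis, was near 0, at most 0.300 FPKM. The 11 summed to 1172 to 1308 FPKM in the controls and 1239 to 1339 FPKM in the other group. The 7 fibroblast markers summed to 41.3 to 53.9 and 45.3 to 51.2 FPKM and those of Schwann and glial cells to 3.33 to 6.93 and 3.35 to 3.67 FPKM. The 6 epithelial markers reached at most 1.22 FPKM in sum, the 6 immune markers 1.97 FPKM and the 5 endothelial markers 0.0491 FPKM in any library, with the defining immune genes PTPRC and CD3E at 0.

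Of the 71 genes, 26 reached 1 FPKM in at least 3 of the 6 libraries and were tested, 39 lay below that filter with some signal, and 6 were listed at 0 in every library. The ligands ephrin-A1, ephrin-A4 and SLIT3 and the receptors UNC5B and PLXNB2 were the 5 genes with a mean of at least 10 FPKM over all libraries. Another 5, SEMA3C, UNC5C, PLXNA2, EPHA2 and SEMA4F, lay between 5 and 10 FPKM, 17 between 1 and 5, 24 between 0.1 and 1, and 20 under 0.1. In bulk RNA, fewer cells that express a gene and less of its RNA per cell cannot be told apart.

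**Figure D1:**
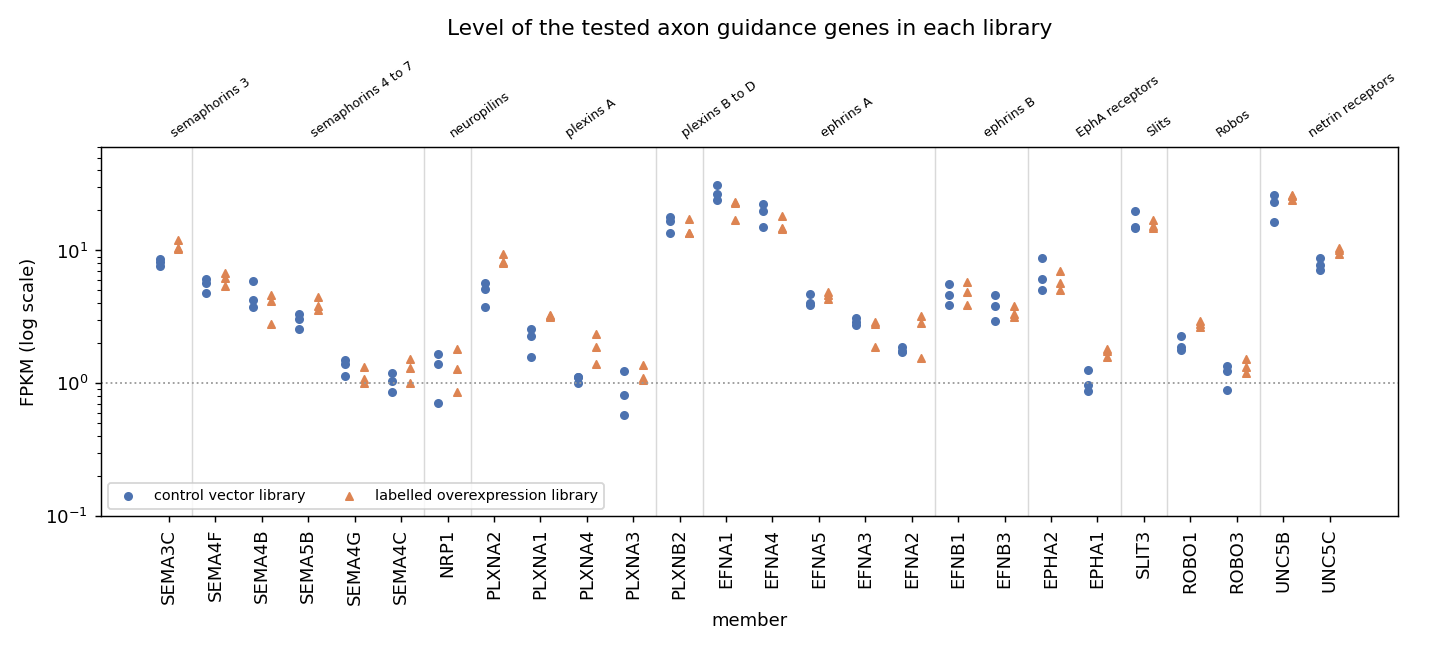
FPKM on a log axis for each of the 26 tested genes, ordered by family and by mean level, with circles for the 3 control vector and triangles for the 3 overexpression-labelled libraries and a dotted line at 1 FPKM. EFNA1, UNC5B, EFNA4, SLIT3 and PLXNB2 stand highest, and the triangles of PLXNA2 all lie above its circles.

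The comparison asked which transcripts differ in the libraries labelled as overexpressing CDKN2B-AS1. No tested guidance gene passed. In limma-trend on log2(FPKM + 0.5) with Benjamini-Hochberg adjustment over all 13984 tested genes, 0 of 26 reached an adjusted p of 0.05, against 1.14% of all tested genes (159, of which 74 were higher and 85 lower). Log2 fold changes lay above 0 in 17 of 26, against 56.8% of all tested genes. At an unadjusted p under 0.05 there were 5 higher and 1 lower guidance genes, against 10.4% and 7.34% of all tested genes. A second test, limma-voom on fragments recovered from the FPKM values, also gave 0. In 8 of 26 (30.8%) every overexpression-labelled library lay above every control, against 14.2% of all tested genes, and in 1 (3.85%) every one lay below, against 9.9%. The 5 and the 8 include EPHA1, which reached the filter through its 3 overexpression-labelled libraries and 1 control. The median log2 fold change of the 26 was 0.15, beside 0.05 for all tested genes. These differences are labelled overexpression minus control vector, and the added 0.5 makes them smaller for low genes.

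The count over all genes moved with single libraries and with the scaling. There were 3, 0 and 124 without control vector replicates 1, 2 and 3 and 0 without each labelled overexpression replicate, with 1665 to 2826 genes at an unadjusted limma-trend p under 0.05 in these 6 settings. Rescaling to a common FPKM total moved the split to 181 higher and 52 lower and the median of all tested genes from 0.05 to 0.15, and median-of-ratios scaling moved the split to 59 higher and 119 lower. The count of guidance genes stayed at 0 in each of these settings. Whether groups overlapped was counted on FPKM as deposited, without rescaling.

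**Figure D2:**
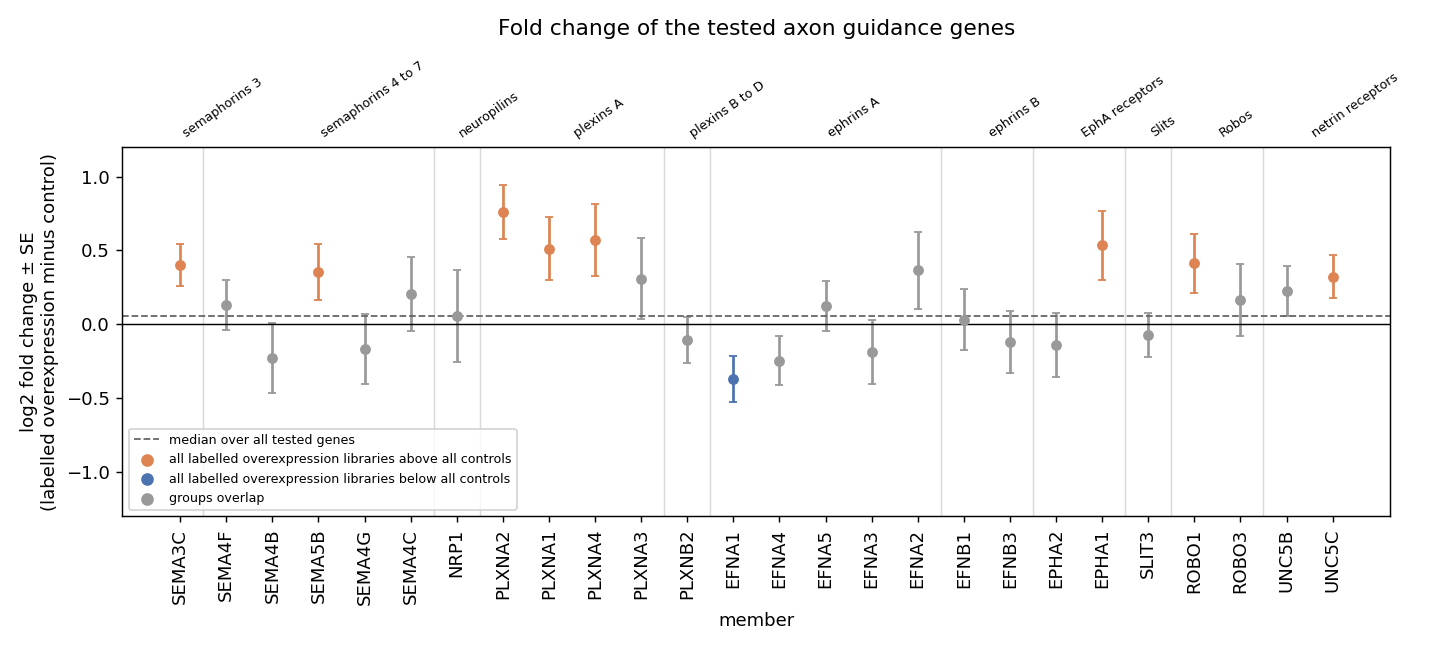
Log2 fold change with its SE for the 26 tested genes by family, coloured by whether the 3 overexpression-labelled libraries lie wholly above (8 genes) or wholly below (1 gene) the 3 controls, with a dashed line at the median of all tested genes (0.05). The 4 plexins A lie above that line, and EFNA1 is the lowest point.

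Receptors and ligands were also counted apart. Among the 12 tested receptors 10 had log2 fold changes above 0, with a median of 0.32, and 6 had groups that did not overlap, each higher, against 14.2% of all tested genes. The 10 include EPHA1 and PLXNA3, which reached the filter through their 3 overexpression-labelled libraries and 1 control, and the 6 include EPHA1. Among the 14 tested ligands 7 were above and 7 below 0, with a median of -0.02, and 2 (14.3%) were separated higher and 1 (7.14%) lower, against 14.2% and 9.9% of all tested genes. All 71 genes together summed to 181 ± 8.05 FPKM in the controls against 187 ± 0.695 FPKM (SD, n = 3 each). Ligands made up 108 ± 5.15 of these against 103 ± 1.86 FPKM (SD, n = 3 each) and receptors 72.9 ± 4.88 against 84.2 ± 2.01 FPKM (SD, n = 3 each). The ratio of the group means was 0.951 for ligands and 1.16 for receptors, beside 0.926 for the FPKM sum of all genes, so relative to that sum the ligands lay higher. No test of the difference between ligands and receptors was made.

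**Figure D3:**
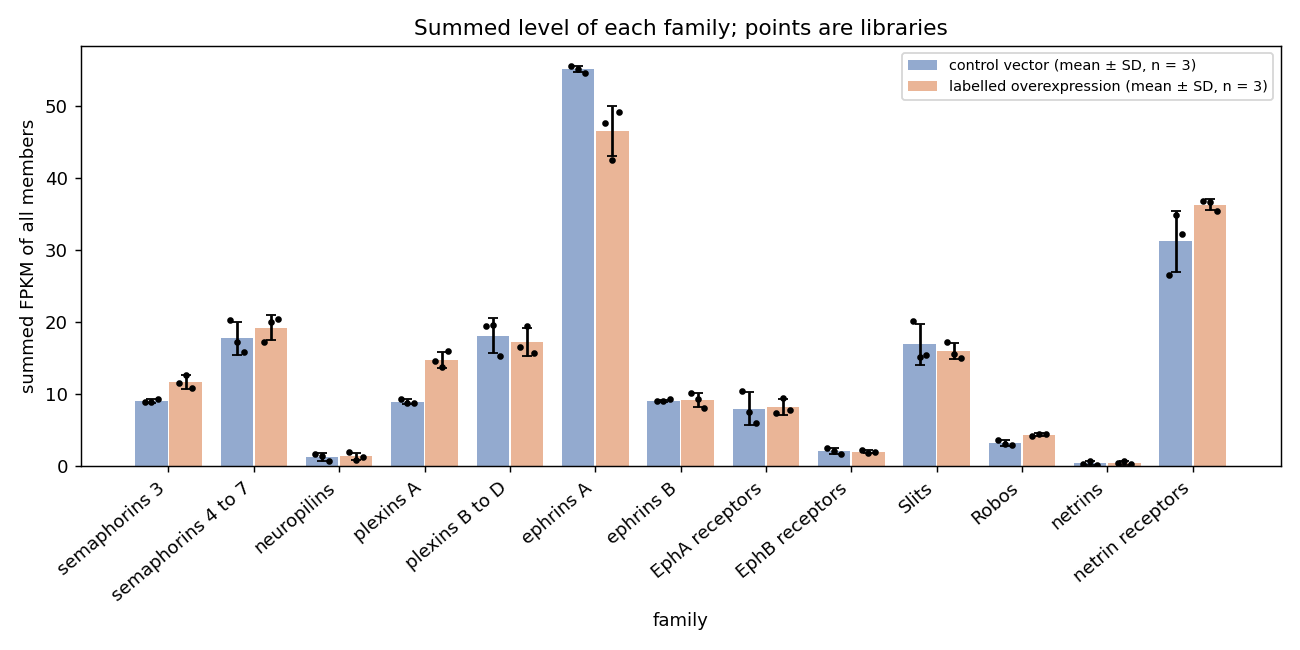
Summed FPKM of all members of each of the 13 families, as bars from 0 for the mean of 3 libraries with SD and points for the libraries. Plexins A are higher and ephrins A lower in all 3 overexpression-labelled libraries, and the netrins stay under 1 FPKM in each library.

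Semaphorins were present as a few members. Of the 7 class 3 genes, which encode secreted ligands, SEMA3C alone was tested (ENSG00000075223, GRCh38 chromosome 7, 80742538 to 80922359, minus strand). SEMA3C, a ligand read through neuropilins and plexins, stood at 8.16, 7.57 and 8.68 FPKM in control replicates 1, 2 and 3, against 10.5, 12.1 and 10.3 FPKM in overexpression-labelled replicates 1, 2 and 3. The overexpression-labelled libraries lay above the controls without overlap, with means of 8.14 ± 0.552 and 10.9 ± 0.973 FPKM (SD, n = 3 each) and a log2 fold change of 0.40 (SE 0.14, limma-trend, Benjamini-Hochberg adjusted p = 0.190), so it did not pass. SEMA3A, the founding repellent cue of this class, was lower and irregular, at 0.472, 1.15 and 0.0199 FPKM in the controls against 0.545, 0.602 and 0.470 FPKM in the overexpression-labelled libraries. Its control vector libraries ran on both sides of the other group. SEMA3G was at 0.596 FPKM in control vector replicate 3 and at most 0.00682 FPKM in the other 5 libraries. The remaining class 3 genes, SEMA3B, SEMA3D, SEMA3E and SEMA3F, did not exceed 0.340 FPKM in any library.

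In classes 4 to 7, whose members are membrane-bound, 5 of 13 were tested. SEMA4F, a transmembrane semaphorin, was the highest at 5.70, 6.14 and 4.76 FPKM in the controls against 5.38, 6.17 and 6.76 FPKM in the overexpression-labelled libraries, and its groups overlapped (log2 fold change 0.13, 95% interval -0.25 to 0.51). SEMA4B, of the same class, stood at 5.93, 3.74 and 4.21 FPKM in the controls against 2.79, 4.65 and 4.19 FPKM in the overexpression-labelled libraries, with a log2 fold change of -0.23 (SE 0.24, limma-trend, Benjamini-Hochberg adjusted p = 0.654). SEMA5B, a semaphorin with thrombospondin repeats, stood at 3.35, 3.04 and 2.57 FPKM in the controls against 3.59, 3.80 and 4.46 FPKM in the overexpression-labelled libraries. Its groups did not overlap, yet the log2 fold change of 0.35 (SE 0.19, limma-trend, Benjamini-Hochberg adjusted p = 0.368) did not pass. SEMA4C and SEMA4G had log2 fold changes of 0.20 and -0.17. For SEMA4G, 1170 exonic bases (22.3% of its length) are shared with MRPL43 on the other strand, at 34.8 and 30.4 FPKM in the group means, and the counting is not stated to use strand, so reads of that pair cannot be told apart. The 8 genes of these classes under the filter ran from SEMA6B, with a highest library of 0.0207 FPKM, to SEMA6A, with 1.08 FPKM. SEMA7A, the lipid-anchored member, was at 0.823, 0.290 and 0.306 FPKM in the controls against 0.335, 0.321 and 0 FPKM in the overexpression-labelled libraries, with 1 control well above the rest.

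Class A plexins, the signalling receptors for class 3 and 6 semaphorins, had the highest median difference of the families with a tested gene. All 4 were tested and had log2 fold changes above 0, with a median of 0.54 and none past the adjusted threshold, while 3 had an unadjusted p under 0.05, as did 10.4% of all tested genes in that direction. Their summed level was 8.96 ± 0.345 and 14.8 ± 1.13 FPKM (SD, n = 3 each) in control and overexpression-labelled libraries, without overlap. The median stayed between 0.40 and 0.73 in the 15 alternatives that left the set of tested genes as it was, also with the values rescaled to a common total (0.63, beside 0.15 for all genes) and with a trend on gene length removed (0.40, beside 0.05). Their median length was 12778 bases, against 3829 for all tested genes, and the part of length in the rest of the difference was not tested.

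PLXNA2, a semaphorin receptor studied in the migration of cerebellar granule cells, came closest to the threshold (ENSG00000076356, GRCh38 chromosome 1, 208022242 to 208244384, minus strand). Its level was 5.17, 3.78 and 5.65 FPKM in control replicates 1, 2 and 3, against 8.02, 8.13 and 9.38 FPKM in overexpression-labelled replicates 1, 2 and 3. Every overexpression-labelled library stood above every control, and the lowest of them exceeded the highest control. Means of 4.87 ± 0.967 and 8.51 ± 0.752 FPKM (SD, n = 3 each) went with a log2 fold change of 0.76 (SE 0.18, limma-trend, Benjamini-Hochberg adjusted p = 0.0816). Without any single library the value lay between 0.61 and 0.87. It passed in 1 of 18 alternatives, with testing limited to genes of at least 5 FPKM in 3 libraries (limma-trend, Benjamini-Hochberg adjusted p = 0.0488). That limit changed the set of genes behind the variance trend and the adjustment, and not the fold change. In the other 17 alternatives the adjusted p was 0.0546 to 0.241.

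PLXNA1 (ENSG00000114554, GRCh38 chromosome 3, 126982693 to 127037389, plus strand) stood at 2.26, 2.58 and 1.58 FPKM in the controls against 3.27, 3.15 and 3.23 FPKM in the overexpression-labelled libraries. The overexpression-labelled libraries were nearly level with each other while the controls ranged more widely, and the log2 fold change of 0.51 (SE 0.22, limma-trend, Benjamini-Hochberg adjusted p = 0.255) did not pass. PLXNA4, which like PLXNA2 binds SEMA6A, lay near the filter, at 1.11, 1.11 and 1.00 FPKM in the controls against 1.88, 1.39 and 2.34 FPKM in the overexpression-labelled libraries, again without overlap and with a log2 fold change of 0.57 (SE 0.24, limma-trend, Benjamini-Hochberg adjusted p = 0.260). PLXNA3 overlapped between groups, at 0.816, 1.25 and 0.573 FPKM in the controls against 1.38, 1.102 and 1.05 FPKM in the overexpression-labelled libraries (log2 fold change 0.31, 95% interval -0.31 to 0.92). PLXNA3 reached the filter through its 3 overexpression-labelled libraries and 1 control.

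The promoters of the 3 class A plexins with separated groups are shown because these receptor genes lay higher together. They are RefSeq sequences on GRCh38.p14 from 250 bases before to 50 after an annotated start, on the gene's strand: PLXNA1 at chr3:126982865-126983164, plus strand, PLXNA2 at chr1:208244335-208244634, minus strand and PLXNA4 at chr7:132576421-132576720, minus strand. The PLXNA1 and PLXNA4 starts lie within the spans that the deposited table gives for these genes, and not at their edges. Capitals mark matches on either strand to the GC box GGGCGG, the CCAAT box CCAAT, the AP-1 site TGAGTCA or the E-box CAGCTG, with overlapping matches each counted.
PLXNA1: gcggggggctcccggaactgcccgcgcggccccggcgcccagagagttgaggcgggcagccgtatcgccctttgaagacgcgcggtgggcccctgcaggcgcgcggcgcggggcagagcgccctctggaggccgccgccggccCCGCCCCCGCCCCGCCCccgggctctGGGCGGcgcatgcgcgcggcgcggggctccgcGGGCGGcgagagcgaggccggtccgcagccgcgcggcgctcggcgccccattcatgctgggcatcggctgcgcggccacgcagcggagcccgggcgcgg
PLXNA2: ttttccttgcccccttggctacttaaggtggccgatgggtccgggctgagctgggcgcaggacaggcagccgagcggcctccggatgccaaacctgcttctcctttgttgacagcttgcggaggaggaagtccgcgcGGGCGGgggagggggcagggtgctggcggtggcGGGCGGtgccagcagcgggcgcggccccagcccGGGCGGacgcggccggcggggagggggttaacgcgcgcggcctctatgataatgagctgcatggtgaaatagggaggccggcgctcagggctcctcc
PLXNA4: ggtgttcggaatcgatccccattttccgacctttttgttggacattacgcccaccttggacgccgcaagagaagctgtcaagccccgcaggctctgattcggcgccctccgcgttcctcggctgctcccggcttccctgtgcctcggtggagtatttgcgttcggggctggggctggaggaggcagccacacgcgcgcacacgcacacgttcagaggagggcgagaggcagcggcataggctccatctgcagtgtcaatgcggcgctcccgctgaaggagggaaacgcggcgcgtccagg

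These windows held 5, 3 and 0 GC boxes in PLXNA1, PLXNA2 and PLXNA4, and 0 of the other 3 motifs. The GC content was 83.0%, 70.3% and 64.3%. Of all 35116 RefSeq promoters of this length, 45.0% hold a GC box, 34.6% a CCAAT box, 4.95% the AP-1 letters and 17.9% the E-box letters. RefSeq promoters were found for 60 of the 71 guidance genes, 94 in number, since some genes have several. Of these 68 (72.3%) hold a GC box, 28 (29.8%) a CCAAT box, 18 (19.1%) the E-box and 0 the AP-1 letters. A match is a run of letters and not evidence of binding.

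The tested class B plexin and neuropilin had differences near 0. PLXNB2, a class B plexin expressed in many tissues, was the most abundant plexin, at 16.5, 17.8 and 13.5 FPKM in the controls against 13.5, 17.3 and 13.4 FPKM in the overexpression-labelled libraries. Its groups overlapped (log2 fold change -0.11, 95% interval -0.46 to 0.25), and its value was 0.00 with a common FPKM total. PLXNB1, a class B receptor for SEMA4D, stood at 1.68, 0.927 and 0.715 FPKM in the controls against 1.63, 0.825 and 0.917 FPKM in the overexpression-labelled libraries and missed the filter. NRP1, the neuropilin that carries SEMA3A signals, was at 1.67, 1.40 and 0.715 FPKM in the controls against 1.82, 0.857 and 1.29 FPKM in the overexpression-labelled libraries (log2 fold change 0.06, 95% interval -0.64 to 0.75), an interval too wide to exclude a sizeable change in either direction. NRP2, its paralog, reached at most 0.107 FPKM. PLXNB3, PLXNC1 and PLXND1, of classes B, C and D, had highest libraries of 1.06, 0.271 and 0.348 FPKM.

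Ephrins included EFNA1 and EFNA4, the most abundant guidance ligands here, and the summed level of the A type lay lower in the overexpression-labelled libraries. All 5 ephrin-A genes were tested, with 2 above and 3 below 0 and a median log2 fold change of -0.19, and none passed. Their summed level was 55.0 ± 0.452 and 46.4 ± 3.47 FPKM (SD, n = 3 each), without overlap. The ratio of these means was 0.843, beside 0.926 for the FPKM sum of all genes. Relative to that sum the groups overlapped. Overexpression-labelled replicate 3, with 49.1 of 349703 FPKM, had a larger share than control replicate 2, with 55.1 of 400215 FPKM. The median log2 fold change ran from -0.22 to -0.02 over the 15 alternatives on the same genes, nearest 0 without labelled overexpression replicate 3. The median length of these 5 genes was 2165 bases, against 3829 for all tested genes, and the part of length in the difference was not tested.

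EFNA1 (ENSG00000169242, GRCh38 chromosome 1, 155127876 to 155134899, plus strand), which encodes a ligand of EPHA2 and other EphA receptors, stood at 30.9, 24.1 and 26.6 FPKM in control replicates 1, 2 and 3, against 23.3, 16.9 and 22.8 FPKM in overexpression-labelled replicates 1, 2 and 3. Every overexpression-labelled library lay below every control, and the log2 fold change of -0.37 (SE 0.16, limma-trend, Benjamini-Hochberg adjusted p = 0.252) did not pass. Relative to the FPKM sum of all genes, however, EFNA1 in overexpression-labelled replicates 1 and 3 lay above control replicate 2. EFNA4 was next, at 15.1, 22.2 and 19.6 FPKM in the controls against 14.4, 14.8 and 18.1 FPKM in the overexpression-labelled libraries, with groups that overlapped (log2 fold change -0.25, 95% interval -0.62 to 0.12). EFNA3 had a log2 fold change of -0.19 at 2.90 ± 0.181 and 2.52 ± 0.575 FPKM (SD, n = 3 each). These 3 genes are neighbours on chromosome 1, with EFNA4 at 155063737 to 155069553, EFNA3 at 155078837 to 155087538 and EFNA1 at 155127876 to 155134899. A read-through gene, RP11-540D14.8, shares 43.9% of the exonic bases of EFNA3 and 15.0% of those of EFNA4, and its own values were 5.46 and 4.22 FPKM in the group means, so the split of reads between them is uncertain. EFNA5, on chromosome 5, and EFNA2, on chromosome 19, had log2 fold changes of 0.12 and 0.36, with means of 4.19 ± 0.420 and 4.60 ± 0.275 FPKM (SD, n = 3 each) and 1.78 ± 0.0928 and 2.53 ± 0.869 FPKM (SD, n = 3 each).

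Ephrins of the B type had differences within their spread. EFNB1, whose loss causes craniofrontonasal syndrome, stood at 3.91, 4.66 and 5.62 FPKM in the controls against 5.81, 4.88 and 3.86 FPKM in the overexpression-labelled libraries (log2 fold change 0.03, 95% interval -0.43 to 0.49). EFNB3, a midline repellent of corticospinal axons, was at 3.82 ± 0.848 and 3.43 ± 0.370 FPKM (SD, n = 3 each) (log2 fold change -0.12, 95% interval -0.58 to 0.34). Their summed level with EFNB2 was 9.12 ± 0.141 and 9.19 ± 1.01 FPKM (SD, n = 3 each).

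The Eph receptors that these ligands bind were sparse. Only EPHA1 and EPHA2 of 9 EphA genes were tested, and 0 of 5 EphB genes. EPHA3, EPHA4, EPHA5 and EPHB6 were listed at 0 in all 6 libraries. EPHA2, a receptor kinase often abundant in tumours, stood at 8.77, 6.09 and 5.08 FPKM in the controls against 5.03, 6.97 and 5.67 FPKM in the overexpression-labelled libraries, with overlap and a log2 fold change of -0.14 (SE 0.22, limma-trend, Benjamini-Hochberg adjusted p = 0.784). EPHA1 (ENSG00000146904, GRCh38 chromosome 7, 143390289 to 143408856, minus strand), the founding member of the family, was at 0.970, 1.27 and 0.870 FPKM in the controls against 1.80, 1.76 and 1.58 FPKM in the overexpression-labelled libraries. Its groups did not overlap, and the log2 fold change of 0.53 (SE 0.23, limma-trend, Benjamini-Hochberg adjusted p = 0.273) did not pass. EPHA1 too reached the filter through its 3 overexpression-labelled libraries and 1 control. EPHA1 shares 82 exonic bases with ZYX on the other strand, which was at 13.8 and 21.2 FPKM in the group means, and the part of that overlap in the EPHA1 value was not tested. EPHB4, a receptor for ephrin-B2 in vessels, and EPHB2 were the highest EphB genes, at 0.998 ± 0.0948 and 0.964 ± 0.151 FPKM (SD, n = 3 each) and 0.718 ± 0.247 and 0.868 ± 0.0904 FPKM (SD, n = 3 each), both under the filter. EPHB3 stood at 0.636, 0.669 and 0.0356 FPKM in the controls against 0.128, 0.0863 and 0.0766 FPKM in the overexpression-labelled libraries, with 2 controls above the rest. EPHA6, EPHA7, EPHA8, EPHA10 and EPHB1 had highest libraries of 0.567, 0.00105, 0.469, 0.0876 and 0.249 FPKM.

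Slits were represented by a single abundant gene. SLIT3, a secreted repellent, stood at 19.9, 15.1 and 14.7 FPKM in control replicates 1, 2 and 3, against 16.9, 15.2 and 14.7 FPKM in overexpression-labelled replicates 1, 2 and 3 (ENSG00000184347, GRCh38 chromosome 5, 168661733 to 169301139, minus strand). The groups overlapped, with a log2 fold change of -0.07 (95% interval -0.40 to 0.26) that turned to 0.04 with a common FPKM total and to 0.06 without control vector replicate 1. The noncoding gene CTC-558O2.2 on the other strand, at 13.8 and 12.8 FPKM, shares 334 exonic bases (2.34% of SLIT3). SLIT1, the brain-enriched paralog, was at 0.283, 0.0941 and 0.668 FPKM in the controls against 0.109, 0.249 and 0.0569 FPKM in the overexpression-labelled libraries, with overlap. It shares 216 exonic bases (2.36% of SLIT1) with ARHGAP19-SLIT1 on the same strand, at 1.45 and 2.16 FPKM in the control and overexpression-labelled means. The part of that overlap in the SLIT1 value was not tested.

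SLIT2, the paralog best known as a midline repellent, was almost undetected in the controls and low in the other group, at 0.0160, 0.00622 and 0.0167 FPKM in the controls against 0.246, 0.185 and 0.245 FPKM in the overexpression-labelled libraries (ENSG00000145147, GRCh38 chromosome 4, 20251905 to 20620561, plus strand). These values rest on 8, 2 and 8 fragments in the controls against 75, 42 and 133 in the overexpression-labelled libraries. The ratio of the summed fragments, scaled to depth, was 16.8 (95% interval 10.4 to 28.9), an exact binomial interval that covers counting error only. Without any single library that ratio lay between 14.3 and 19.1. The higher group still stood at 0.226 FPKM, against 15.6 FPKM for SLIT3.

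The promoters of these paralogs are shown because the levels of the 2 genes lie so far apart. Both are RefSeq sequences on GRCh38.p14, SLIT2 at chr4:20251655-20251954, plus strand and SLIT3 at chr5:169301090-169301389, minus strand, with the same motifs in capitals.
SLIT2: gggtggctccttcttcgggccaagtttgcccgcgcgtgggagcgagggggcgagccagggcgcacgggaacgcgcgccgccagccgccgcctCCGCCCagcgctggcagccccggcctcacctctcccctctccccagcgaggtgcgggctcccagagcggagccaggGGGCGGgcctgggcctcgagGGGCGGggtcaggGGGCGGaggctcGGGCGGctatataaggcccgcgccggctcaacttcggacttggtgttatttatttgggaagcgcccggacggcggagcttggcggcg
SLIT3: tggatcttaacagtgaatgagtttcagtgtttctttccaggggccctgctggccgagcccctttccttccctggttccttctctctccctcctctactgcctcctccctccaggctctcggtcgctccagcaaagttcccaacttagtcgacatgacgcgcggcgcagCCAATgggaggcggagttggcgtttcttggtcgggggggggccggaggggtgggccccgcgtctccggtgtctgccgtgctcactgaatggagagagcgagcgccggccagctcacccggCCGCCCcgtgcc

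SLIT2, the gene near 0, held 5 GC boxes and no CCAAT box, while SLIT3 held 1 of each. The ratio of observed to expected CG pairs was 0.876 in SLIT2 and 0.703 in SLIT3, beside a median of 0.579 over all RefSeq promoters. Over the guidance genes that median was 0.730 in the 32 promoters of tested genes and 0.689 in the 62 promoters of genes under the filter.

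Robo receptors, which bind Slits, were modest in level. ROBO1 (ENSG00000169855, GRCh38 chromosome 3, 78597239 to 79767998, minus strand), the main receptor of the family, stood at 2.28, 1.79 and 1.89 FPKM in control replicates 1, 2 and 3, against 2.67, 2.80 and 2.93 FPKM in overexpression-labelled replicates 1, 2 and 3. The overexpression-labelled libraries lay above the controls without overlap, and the log2 fold change of 0.41 (SE 0.20, limma-trend, Benjamini-Hochberg adjusted p = 0.314) did not pass. ROBO3, which modulates Slit responses at the midline, was at 1.16 ± 0.232 and 1.35 ± 0.174 FPKM (SD, n = 3 each) (log2 fold change 0.17, 95% interval -0.38 to 0.71). ROBO2 and the endothelial ROBO4 reached at most 0.216 FPKM in all libraries.

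Of the 5 netrin receptors UNC5B and UNC5C were abundant, while each netrin ligand stayed under 1 FPKM. NTN1 and NTN5 were listed at 0 in all 6 libraries. The other secreted netrins NTN3 and NTN4 reached at most 0.201 and 0.302 FPKM, with NTN4 listed at 0 in each control, and NTNG2 at most 0.179 FPKM. NTNG1, a membrane-anchored netrin that binds other partners, was at 0.273, 0.708 and 0.204 FPKM in the controls against 0.287, 0.177 and 0.121 FPKM in the overexpression-labelled libraries. The summed netrin level was 0.417 ± 0.296 and 0.475 ± 0.226 FPKM (SD, n = 3 each), against 31.2 ± 4.26 and 36.2 ± 0.759 FPKM (SD, n = 3 each) for DCC and the UNC5 genes.

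UNC5B, a receptor of netrin repulsion, stood at 16.4, 26.2 and 23.3 FPKM in control replicates 1, 2 and 3, against 25.8, 26.0 and 24.1 FPKM in overexpression-labelled replicates 1, 2 and 3 (ENSG00000107731, GRCh38 chromosome 10, 71212570 to 71302864, plus strand). Control vector replicate 1 was the lowest library, and the groups overlapped (log2 fold change 0.23, 95% interval -0.15 to 0.60). Without that library the value was 0.03. UNC5C (ENSG00000182168, GRCh38 chromosome 4, 95162504 to 95549206, minus strand), a paralog, was at 8.82, 7.75 and 7.14 FPKM in the controls against 10.4, 9.43 and 10.2 FPKM in the overexpression-labelled libraries. Its groups did not overlap, and the log2 fold change of 0.32 (SE 0.15, limma-trend, Benjamini-Hochberg adjusted p = 0.286) did not pass. UNC5B exceeded UNC5C in every library. DCC, the attractive netrin receptor, was at 0.547 FPKM in control vector replicate 1 and at most 0.0451 FPKM in the other 5 libraries. UNC5A and UNC5D, further repulsive receptors, had highest libraries of 0.501 and 1.31 FPKM.

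Below the filter of 1 FPKM, 29 guidance genes had at least 10 fragments in 3 libraries, among them SLIT2, EPHA6, SEMA6A, SEMA6C and PLXND1, whose groups did not overlap. These were 5 of 29 (17.2%), each higher, with 0 lower, beside 14.2% and 9.9% of all tested genes. The share over all genes below the filter was not computed, so the 5 are described and not read as a result about guidance genes. SLIT2 met that minimum in its 3 overexpression-labelled libraries and in 0 controls, so it entered through the group where it was high. EPHA6, a neuronal Eph receptor, stood at 0.176, 0.0492 and 0.0659 FPKM in the controls against 0.329, 0.567 and 0.269 FPKM in the overexpression-labelled libraries. Its depth-scaled ratio of summed fragments was 3.35 (95% interval 2.57 to 4.41), with 2.76 to 5.89 when single libraries were left out. SEMA6A, a transmembrane ligand of PLXNA2 and PLXNA4, was at 0.697, 0.180 and 0.356 FPKM in the controls against 1.08, 0.923 and 0.861 FPKM in the overexpression-labelled libraries. Its ratio was 2.11 (95% interval 1.90 to 2.34), with 1.76 to 3.28 when single libraries were left out. The intervals are exact binomial ones and cover counting error only. SEMA6C and PLXND1 had ratios of 2.57 (95% interval 2.00 to 3.32) and 2.36 (95% interval 1.91 to 2.93). With single libraries left out these ran from 1.93 to 3.19 and from 1.62 to 3.13. Ratios under 1 came with groups that overlapped, and some of them rested on few libraries. DCC had 324 of its 338 control fragments in control replicate 1, and its ratio of 0.104 became 1.55 without that library and 0 without overexpression-labelled replicate 3, which held all 29 fragments of its group. SLIT1 had 0.299, or 0.538 without control replicate 3. SEMA7A had 0.325, or 0.543 without control replicate 1, and 0.189 and 0.658 without overexpression-labelled replicates 1 and 3. Of the ratios under 1 named here, all but that of DCC stayed under 1 without any single library. EPHB3 had 0.221, with 0.144 to 0.322 when single libraries were left out. UNC5A had 0.469, with 0.351 to 0.604, and NTNG1 had 0.506, with 0.386 to 0.752. In limma-voom on all 19417 genes with at least 10 fragments in 3 libraries, a fit added after the data were seen, 0 of 55 guidance genes passed, against 0.108% of all genes there. At an unadjusted p under 0.05 there were 13 higher and 0 lower, against 10.7% and 4.91%. These counts include genes that, like SLIT2, met the minimum through a single group.

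**Figure D4:**
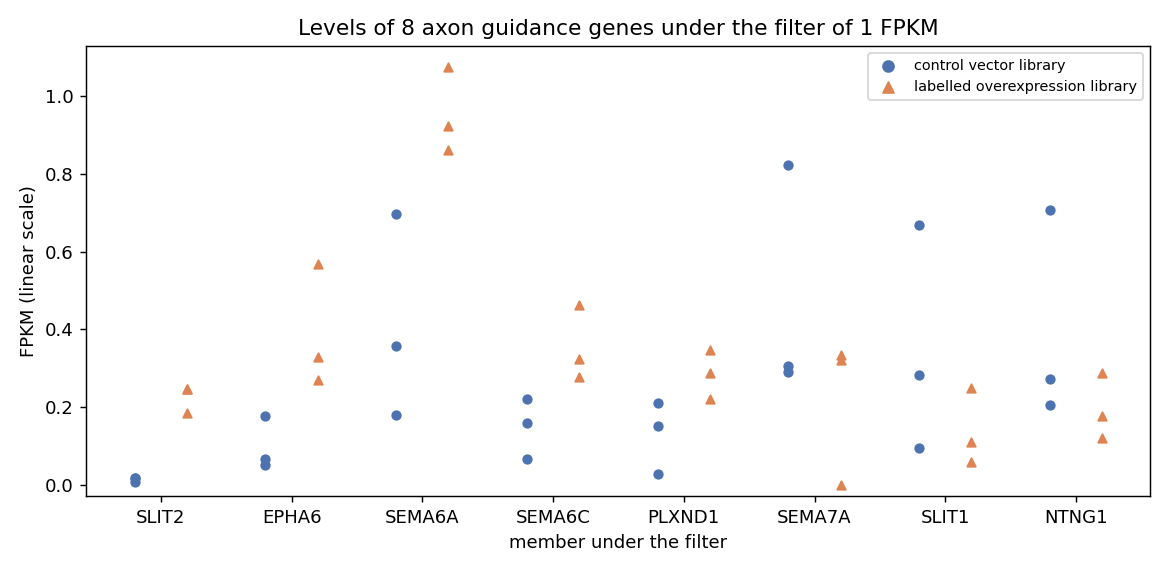
FPKM on a linear axis for 8 guidance genes under the filter, with circles for control vector and triangles for overexpression-labelled libraries. The 5 on the left are separated between groups, while SEMA7A, SLIT1 and NTNG1 each have 1 control library that stands high and groups that overlap.

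Genes that act with these receptors inside or beside the neurite were listed apart, 133 in 6 lists, of which 83 were tested. Of these, 2 passed, both higher, beside 1.14% of all tested genes. At an unadjusted p under 0.05, 17 were higher and 1 lower, beside 10.4% and 7.34% of all tested genes. Their median log2 fold change was 0.23, beside 0.05, and in 24 (28.9%) the overexpression-labelled libraries lay wholly above the controls, beside 14.2%. The 24 include SSH1 and FARP1, which lay under 1 FPKM in every control and reached the filter only through the group where they were high. They also include GPC1, ROCK2 and GSK3B, which reached 1 FPKM in 1 control only. SSH1 and GPC1 are among the 17 as well. The lists were drawn up with earlier results of these data known, so they are no independent support of a direction.

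Both genes that passed were cytoskeletal effectors, a list with 2 of 16 past the threshold and a median of 0.27. MAP1B, a microtubule-binding protein of growing axons, stood at 27.1, 27.7 and 31.9 FPKM in the controls against 42.6, 45.9 and 50.4 FPKM in the overexpression-labelled libraries, with a log2 fold change of 0.67 (SE 0.12, limma-trend, Benjamini-Hochberg adjusted p = 0.0380). DPYSL2, also called CRMP2, which relays semaphorin signals to microtubules, was at 70.8, 66.2 and 65.6 FPKM in the controls against 91.8, 106 and 93.1 FPKM in the overexpression-labelled libraries, with a log2 fold change of 0.52 (SE 0.10, limma-trend, Benjamini-Hochberg adjusted p = 0.0451). GAP43, a growth cone protein, had a log2 fold change of 0.48 without passing. The number that passed fell to 0 without control vector replicate 1 or 2 or without any labelled overexpression replicate, and was 2 without control vector replicate 3.

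In the other lists 0 genes passed the limma-trend test, and the values that follow are log2 fold changes. Of all tested genes 10.4% were higher and 7.34% lower at an unadjusted p under 0.05, which is the measure for the counts in each list. Of 22 kinases and adaptors 4 were higher and 1 lower at an unadjusted p under 0.05, with PAK3, a kinase that acts on the actin cytoskeleton, at 0.81, NCK2, an adaptor of Eph receptors, at 0.64 and USP33, a deubiquitinase that binds ROBO1, at -0.57. Co-receptors and adhesion partners had 2 of 13 higher and 0 lower, with NCAM1, the neural cell adhesion molecule, at 0.67, GPC1, a Slit-binding glypican, at 0.65 and PTPRS at 0.36. Other guidance cues and receptors had 1 of 7 higher and 0 lower, with RTN4, which encodes the growth inhibitor Nogo, at 0.60, the netrin and RGM receptor NEO1 at 0.43 and BOC at 0.37. The list drawn up for proteases had 6 tested genes, with 0 in either direction at that unadjusted p. Of these, BACE1, MMP2 and ADAM22 were at 0.37, 0.21 and 0.35.

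**Figure D5:**
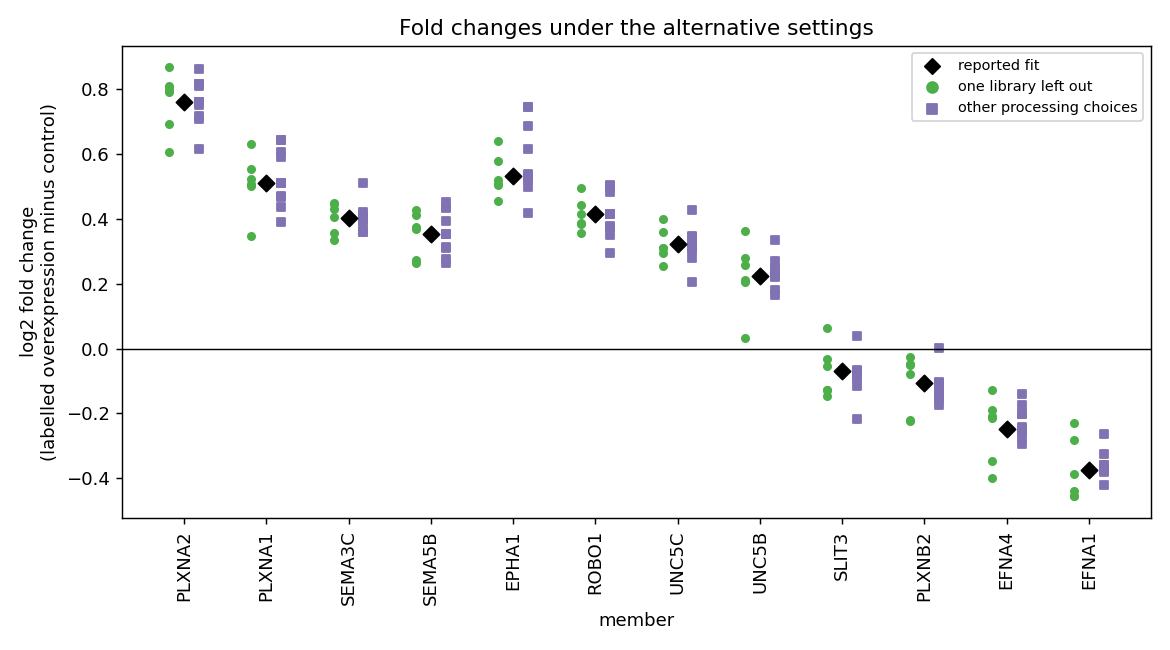
Log2 fold change of 12 guidance genes in the reported fit (diamond), with 1 library left out (circles) and under the other processing choices (squares). PLXNA2 stays between 0.61 and 0.87, EFNA1 stays below 0, and SLIT3 and PLXNB2 lie near 0 on both sides of it.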

How the data were processed

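RNA of 6 libraries was measured from low-input cDNA read as paired ends. The deposited values are FPKM per gene, made by the authors with STAR 2.7.9 and featureCounts 2.0.1 on GRCh38.p13 (hg38), per the submitters' processing notes. Counting options and strand use are not given in the sources used here. FPKM times the deposited gene length in kilobases gave a sum of 1000000 per library, and the values were multiples of 0.01 fragments, of which 45.04% to 48.69% were whole fragments within a tolerance of 0.001, so shared reads may have been split. Depth was 29048596 to 45102020 fragments in control vector and 20466583 to 48996425 in overexpression-labelled libraries.

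The test was limma 3.58.1 (R 4.3.3) with a mean-variance trend and no block, applied to log2(FPKM + 0.5) of genes with at least 1 FPKM in at least 3 libraries, with Benjamini-Hochberg adjustment over 13984 genes. The fits were run on simulated data with changes planted only in genes with a mean of at least 5 FPKM. That run therefore does not show how well changes in lower genes are found. Alternatives were pseudocounts of 0.1 and 1, no filter or one of 5 FPKM, other scalings, removal of a length trend (loess on the deposited gene length), no variance trend, array weights, limma-voom on recovered fragments, the replicate number as a block, and leaving out each library. Binomial intervals used scipy 1.17.1. The members and lists were chosen with earlier results of these data known. By rule, the 2 highest members of each family and its 2 tested members of smallest p are named, with genes of each list that passed or had its 3 smallest p. Other members named were chosen after their values were seen. The values of 1 list are not reported here.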

Additional observations from a re-analysis of the deposited data

How the results depend on the processing

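Of the fold changes of tested guidance genes recomputed under alternatives, 439 kept their direction and their side of the threshold, 12 changed sign and 1, PLXNA2 with the filter at 5 FPKM, crossed the threshold (log2 fold change 0.76, limma-trend Benjamini-Hochberg adjusted p = 0.0488), so that 1 guidance gene passed there and 0 in the other 17 settings. The changes of sign were of small values. EFNB1 had -0.012 with median-of-ratios scaling, -0.0056 in the added limma-voom fit, and -0.09 and -0.10 without control vector or labelled overexpression replicate 1, in a range of -0.10 to 0.17 with single libraries left out. Without control vector replicate 1 EFNB3 had 0.017, in a range of -0.27 to 0.017, and EPHA2 0.065, in a range of -0.30 to 0.065. NRP1 had -0.069 with the length trend removed, -0.19 without control vector replicate 3 and -0.14 without labelled overexpression replicate 1, in a range of -0.19 to 0.25. With a common FPKM total PLXNB2 had 0.00068 and SLIT3 0.038, and SLIT3 had 0.064 without control vector replicate 1, in a range of -0.15 to 0.064. The cause was not tested.

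The median of the tested guidance genes was 0.15. It was 0.030 with the filter at 5 FPKM, where 10 of them were left, 0.27 in the added limma-voom fit, where 55 entered, and 0.10 to 0.20 with single libraries left out. Over all genes, 159 passed. The count was 0 with no filter (3538 at an unadjusted p under 0.05), 339 with the filter at 5 FPKM, 0 with no mean-variance trend (2304 at an unadjusted p under 0.05), 265 with array weights, 21 in the added limma-voom fit, and 0 to 124 with single libraries left out. Of the other pathway genes 2 passed, with 1 at a pseudocount of 0.1, 1 with median-of-ratios scaling, 1 with the length trend removed, 0 with no filter, 0 with no mean-variance trend and 0 in the added limma-voom fit, and 0 to 2 with single libraries left out. The ratio for CDKN2B-AS1 was 1.37 in limma-voom and 1.19 to 1.44 with single libraries left out. The titles number the libraries of both groups 1 to 3, but same-numbered libraries deviated together with correlations of -0.0235, 0.105 and 0.119, and not every library correlated best with its own number. With a replicate block 229 genes passed, 0 of them guidance genes and 2 of them other pathway genes. Under the filter the fragments behind a guidance gene differed widely, with 18 over the 3 controls in SLIT2 and 1308 in PLXNB1.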

Other observations

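The name rule also met 5 noncoding genes annotated as antisense to semaphorins, which were left out of the guidance genes. SEMA3F-AS1 was the only one of the 5 that reached the filter, at 2.23, 3.96 and 2.41 FPKM in control replicates 1, 2 and 3, against 3.07, 3.64 and 3.08 FPKM in overexpression-labelled replicates 1, 2 and 3. The groups overlapped, with a log2 fold change of 0.19 (limma-trend, Benjamini-Hochberg adjusted p = 0.713). Its coding partner SEMA3F, with which it shares 110 exonic bases, stood at 0.0612 and 0.0631 FPKM in the group means. SEMA5A-AS1 was listed at 0 in all 6 libraries, and SEMA3B-AS1, SEMA6A-AS1 and SEMA6A-AS2 reached at most 0.407, 0.218 and 0.0981 FPKM.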
